A study of Mus musculus with 5 samples.

Results

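The genes described here encode 10 peptide hormones and neuropeptides, Calca, Calcb, Grp, Cck, Nts, Gal, Npy, Tac1, Cartpt and Sst. They were picked by gene name from the 54532 genes of a deposited read count table, and all 10 were found, each in 1 row. RNA-seq counts were available for 5 mouse small cell lung cancer tumours, taken from the lung at necropsy and frozen. The groups were 3 tumours labelled LSN and 2 labelled Vehicle. The series names its treatment as inhibition of Aurora A, a kinase that cells need to build the mitotic spindle. All 5 tumours carry the genotype RPP, a name used in this field for mice that lose the tumour suppressors Rb1, Trp53 and Rbl2 in lung cells. The sources used here do not give how the deletion was induced, the strain and age of the animals, or the dose and duration of LSN. The series speaks of primary tumour cells while the sample labels speak of tumour tissue, and no label ties a tumour to an animal of its own. The p-values thus rest on the spread among these 5 samples, which may be technical.

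Small cell lung cancer resembles the neuroendocrine cells of the airway, which store peptides in dense core vesicles. Each peptide is made as a longer prohormone that convertases cut at pairs of basic residues, and after release it acts on G protein-coupled receptors of the same or of other cells. Calca is a classical marker of pulmonary neuroendocrine cells in mouse, and gastrin-releasing peptide, the product of Grp, is known as an autocrine growth factor of human small cell lung cancer.

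Neuroendocrine identity was checked with 12 markers. All 12 were above 3 counts in every tumour, with summed levels of 5560 to 9137 CPM (counts scaled to library size, with TMM factors) in the LSN tumours and of 3110 to 5981 CPM in the Vehicle tumours. Total counts lay between 17439049 and 19766604 per tumour, and the floor below which a gene was not read as present, a count of 3, equalled 0.159 to 0.167 CPM. Of the 17906 genes that passed a filter on low counts, edgeR called 0 between LSN and Vehicle at an adjusted p of 0.05, with 764 (4.27%) at an unadjusted p under 0.05, limma-voom also called 0, and DESeq2 called 100 (0.539% of those it tested). Normal lung epithelium markers summed to 367 to 1873 CPM in the LSN tumours and to 6645 to 8219 CPM in the Vehicle tumours, and endothelial markers to 167 to 666 CPM in the LSN tumours and to 529 to 735 CPM in the Vehicle tumours. All 10 epithelial and all 8 endothelial markers were above the floor in every tumour. In every LSN tumour, 7 of the 10 epithelial and 7 of the 8 endothelial markers were below both Vehicle tumours, against 10.4% of all genes tested. The endothelial marker that overlapped was Vwf, at 52.4, 540 and 425 CPM with LSN and at 439 and 49.5 CPM with Vehicle. It made up most of the endothelial sum in LSN replicates 2 and 3 and Vehicle replicate 1.

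Calca and Calcb lie on chromosome 7 with a gap of 82285 bases between them, on opposite strands, and both encode a calcitonin gene-related peptide (CGRP). Over their coding sequences, transcripts Calca-201 and Calcb-201 of GENCODE M21 were identical at 325 of 381 aligned bases (85.3%), with an identical run of 60 bases. The ungapped coding windows of 90 bases that were most alike, at 87 identical bases, are printed to show how little separates a read of one from a read of the other, with the differing letters in capitals. They are bases 227 to 316 of the Calca coding sequence (chr7:114632511-114634468, minus strand, GRCm38) and 230 to 319 of the Calcb coding sequence (chr7:114720214-114722063, plus strand), each joined across an intron.
Calca: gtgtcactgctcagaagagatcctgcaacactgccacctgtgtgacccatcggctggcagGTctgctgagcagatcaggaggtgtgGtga
Calcb: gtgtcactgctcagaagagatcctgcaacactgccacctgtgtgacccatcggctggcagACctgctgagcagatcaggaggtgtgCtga

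The other Calca transcripts of full coding length, Calca-202 and Calca-207, with 408 coding bases, were 71.8% identical to Calcb-201 and shared no identical run above 13 bases. Alternative splicing of Calca gives calcitonin or CGRP. Counts per gene do not tell these forms apart, and the sources used here do not say how reads that match both genes were treated, so values of Calcb are uncertain.

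Promoters of 8 members were taken from the RefSeq table (build GRCm38.p6). Calcb had no entry there, and Grp was left out of the search. The 250 bases before each RefSeq start site were searched on both strands for TGACG, one end of the cAMP response element, and for E-boxes, the kind of site that basic helix-loop-helix factors bind. The first motif stood in 6 of the 8 promoters (Calca, Cck, Nts, Tac1, Cartpt and Sst), against 17.75% of 32817 promoter windows of the same length. The E-box CAGCTG was present in 1 of the 8 (Nts), against 13.0% of all windows. The E-box CAGATG was present in 3 (Cck, Tac1 and Cartpt), against 14.5% of all windows. The E-box CACGTG was present in 2 (Cck and Tac1), against 6.02% of all windows. The promoters of Gal and Npy held none of these letters. Promoters of Calca, Cartpt and Tac1 are printed because these genes separated the 2 Vehicle tumours most widely, and that of Sst because it holds the same motif on both strands. Capitals mark the letters of these motifs on either strand. The windows are chr7:114636358-114636607 (minus strand) for Calca, chr13:99900684-99900933 (minus) for Cartpt, chr6:7554811-7555060 (plus) for Tac1 and chr16:23890845-23891094 (minus) for Sst. The gene bounds of the count table differ from the RefSeq start sites for some genes. By those bounds the Cartpt window lies wholly within the gene, and the windows of Tac1, Nts and Sst lie partly within theirs.
Calca: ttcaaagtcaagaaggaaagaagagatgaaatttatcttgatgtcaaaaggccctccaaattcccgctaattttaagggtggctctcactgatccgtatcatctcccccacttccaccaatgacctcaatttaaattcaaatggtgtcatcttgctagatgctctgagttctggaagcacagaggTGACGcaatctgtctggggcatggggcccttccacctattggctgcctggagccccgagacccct
Cartpt: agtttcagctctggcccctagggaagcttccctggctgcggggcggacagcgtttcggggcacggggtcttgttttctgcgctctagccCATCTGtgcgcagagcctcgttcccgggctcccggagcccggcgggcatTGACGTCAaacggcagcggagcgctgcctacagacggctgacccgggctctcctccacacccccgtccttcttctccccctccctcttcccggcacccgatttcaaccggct
Tac1: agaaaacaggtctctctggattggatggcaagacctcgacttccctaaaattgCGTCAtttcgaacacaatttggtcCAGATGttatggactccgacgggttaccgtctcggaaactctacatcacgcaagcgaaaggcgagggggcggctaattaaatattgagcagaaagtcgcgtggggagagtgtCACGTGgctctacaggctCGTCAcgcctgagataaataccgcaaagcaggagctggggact
Sst: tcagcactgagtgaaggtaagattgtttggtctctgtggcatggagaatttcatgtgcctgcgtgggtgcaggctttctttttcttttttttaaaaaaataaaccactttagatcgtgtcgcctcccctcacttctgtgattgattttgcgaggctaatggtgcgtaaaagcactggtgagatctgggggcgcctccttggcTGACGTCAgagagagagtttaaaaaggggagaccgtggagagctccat

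The motif begins 65 bases before the start site of Calca and at 197 and 43 bases before that of Tac1. In Cartpt and Sst the 2 strands' matches overlap, so that the element is a palindrome, beginning 112 bases before the start of Cartpt and 48 bases before that of Sst. A match describes letters and does not show that a factor binds there, and Sst, with the palindrome, was at or under the floor in every tumour.

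The comparison of LSN with Vehicle asked whether peptide genes differ in tumours exposed to the Aurora A inhibitor, in a study whose title concerns mitosis and interferon signalling. No member was called. Peptide levels instead differed widely from tumour to tumour, and the 2 Vehicle tumours stood further apart than the LSN tumours for Calca, Calcb, Gal, Cartpt and Tac1. Vehicle replicate 1 had the highest level of Calca, Calcb, Gal, Cartpt and Cck, Vehicle replicate 2 that of Npy, Nts and Tac1, and LSN replicate 1 that of Grp.

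**Figure D1:**
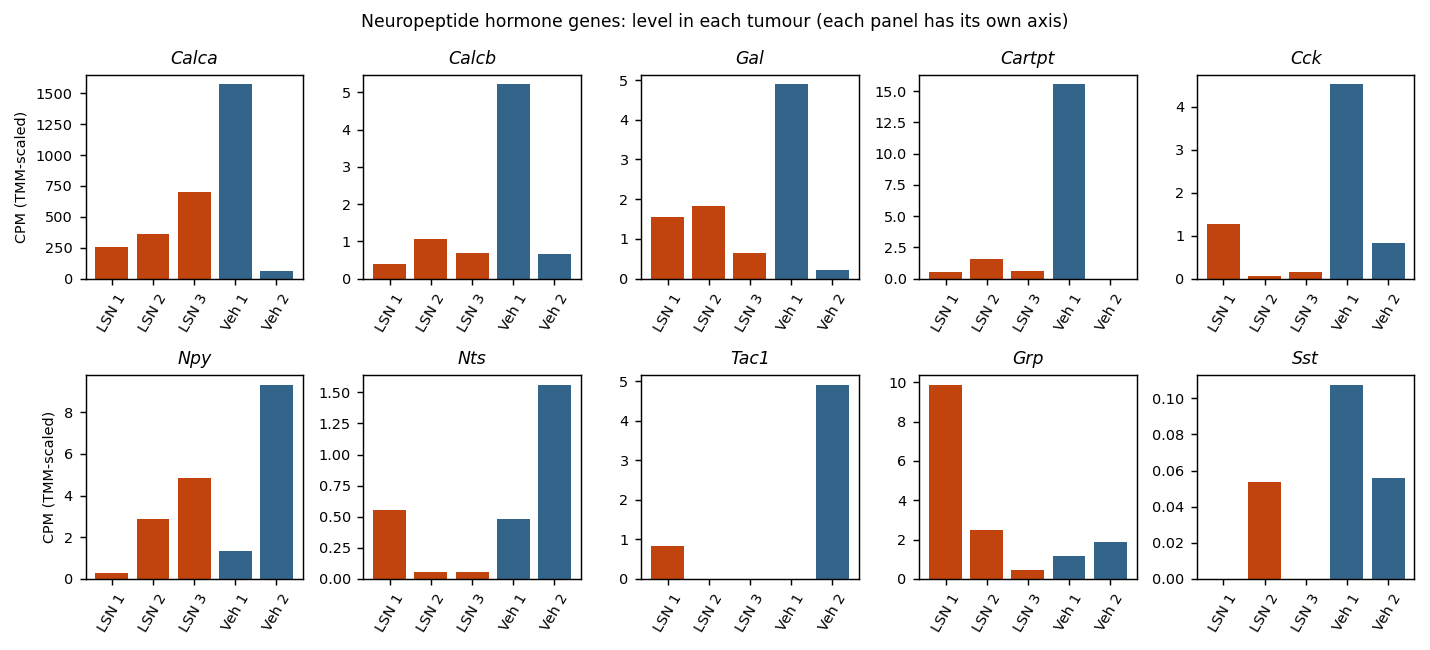
Level of each of the 10 genes (y axis, TMM-scaled CPM from 0, a separate scale in each panel) in the 3 LSN tumours (orange) and 2 Vehicle tumours (blue); each bar is 1 tumour. Calca reached 1573 CPM in Vehicle replicate 1 and 61.2 CPM in Vehicle replicate 2, with the LSN tumours between them, while Sst stayed at or under 2 counts.

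Calca (chromosome 7, 114631478 to 114636357, mm10), the gene of calcitonin and alpha-CGRP, had 4661, 6688 and 13187 counts in LSN replicates 1, 2 and 3, against 29245 and 1097 counts in Vehicle replicates 1 and 2. The corresponding levels were 257, 358 and 698 CPM with LSN and 1573 and 61.2 CPM with Vehicle. All 3 LSN tumours thus lay between the 2 Vehicle tumours, which differed 25.7-fold, while the LSN tumours differed 2.71-fold. Calca averaged 438 ± 231 CPM over the LSN tumours (SD, n = 3), against 817 ± 1069 CPM over the Vehicle tumours (SD, n = 2). Calca had a log2 fold change of -0.90 ± 1.18 (SE; edgeR, unadjusted p = 0.479), and without Vehicle replicate 1 it was 2.85, so that a single tumour set its direction. limma-voom, which averages on the log scale, gave 0.36.

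Calca was the most highly expressed member per kilobase in each of the 5 tumours. It made up 91.4, 94.6 and 97.4% of the summed CPM per kilobase of the 10 genes in LSN replicates 1, 2 and 3, and 96.8 and 61.8% in Vehicle replicates 1 and 2. In Vehicle replicate 2, where Calca was lowest, Npy took 28.0% of the sum. These shares use the gene lengths of the deposited table.

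Vehicle replicate 2 was also the tumour with the lowest summed neuroendocrine markers, at 3110 CPM, but the 12 markers did not move together. It had the lowest level of 7 of the 12 and the highest of 1, Uchl1, a neuronal ubiquitin hydrolase. Set against the mean log2 CPM of the 12 neuroendocrine markers, Calca stood at -0.51, -0.18 and 1.38 in the LSN tumours and at 2.33 and -1.57 in the Vehicle tumours. The order of the 5 tumours was the same on this scale. In bulk tissue, fewer cells of a type and less RNA per cell cannot be told apart.

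Calcb (chromosome 7, 114718643 to 114723365), which encodes beta-CGRP, had 7, 20 and 13 counts with LSN, against 97 and 12 counts with Vehicle. Vehicle replicate 1 was the high tumour, as for Calca, while Vehicle replicate 2 lay within the range of the LSN tumours. Calcb counts amounted to 0.150, 0.299 and 0.0986% of the Calca counts in the LSN tumours and to 0.332 and 1.09% in the Vehicle tumours, so the ratio was not constant. Calcb had a log2 fold change of -2.03 ± 1.003 (SE; edgeR, unadjusted p = 0.0940), the smallest p among the members, and 0.10 without Vehicle replicate 1.

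Gal (chromosome 19, 3409919 to 3414472), the gene of galanin, a peptide of neurons and endocrine cells, had 28, 34 and 12 counts with LSN, against 91 and 4 counts with Vehicle. As with Calca, the LSN tumours lay between the Vehicle tumours, whose levels differed 21.9-fold. For Gal the log2 fold change was -0.94 ± 1.23 (SE; edgeR, unadjusted p = 0.477).

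Cartpt (chromosome 13, 99898489 to 99901091), which encodes the prohormone of CART, a peptide known for reducing appetite, had 9, 30 and 12 counts with LSN, against 289 and 0 counts with Vehicle. The level in Vehicle replicate 1, 15.5 CPM, was at least 92.8-fold higher than the floor of 3 counts in Vehicle replicate 2, the widest gap of any member. The log2 fold change of -3.08 ± 1.94 (SE; edgeR, unadjusted p = 0.169) was above 0 without Vehicle replicate 1, where the remaining Vehicle tumour is at 0 and the size depends on the prior count. By limma-voom it was 0.29.

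Cck (chromosome 9, 121489824 to 121495694), the gene of cholecystokinin, a gut hormone and brain peptide, had 23, 1 and 3 counts with LSN, against 84 and 15 counts with Vehicle. LSN replicates 2 and 3 were at or under the floor, and LSN replicate 1 lay between the Vehicle tumours, so the groups overlapped. For Cck the log2 fold change was -2.43 ± 1.41 (SE; edgeR, unadjusted p = 0.140) and stayed below 0 without each tumour in turn, from -4.57 to -0.75.

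**Figure D2:**
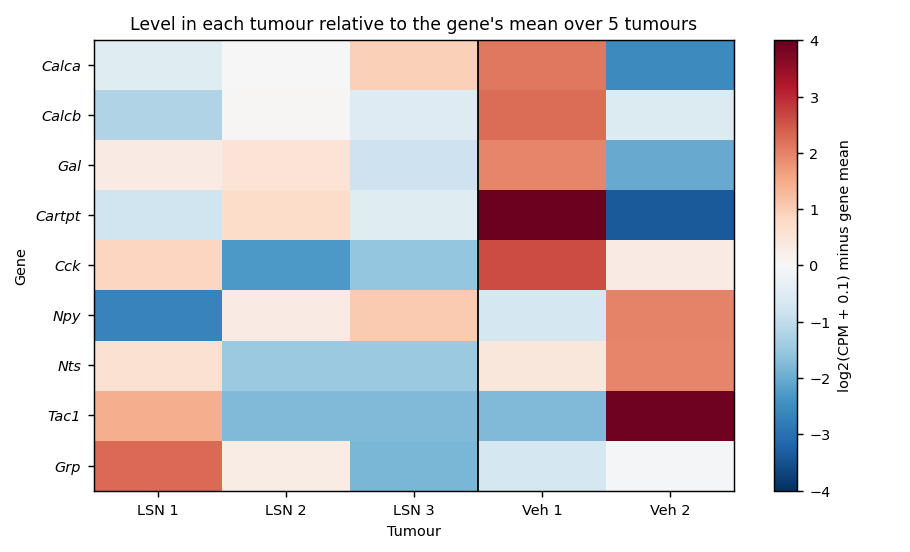
Heat map of the 9 genes that passed the filter on low counts (rows) in 3 LSN and 2 Vehicle tumours (columns), as log2(CPM + 0.1) minus the gene's mean over the 5 tumours; red is above and blue below that mean. Calca, Calcb, Gal, Cartpt and Cck are reddest in Vehicle replicate 1, Npy, Nts and Tac1 in Vehicle replicate 2, and Grp in LSN replicate 1.

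A second set of peptides had its highest level in Vehicle replicate 2. Npy (chromosome 6, 49822710 to 49829507), the gene of neuropeptide Y, a transmitter of sympathetic nerves, had 5, 54 and 91 counts with LSN, against 25 and 167 counts with Vehicle. Vehicle replicate 1, the tumour with most Calca, was second lowest for Npy, and the groups overlapped. Npy had a log2 fold change of -0.9995 ± 1.30 (SE; edgeR, unadjusted p = 0.473), and 0.98 without Vehicle replicate 2. The 11 markers of peripheral nerve summed to 636, 168 and 391 CPM in the LSN tumours and to 364 and 487 CPM in the Vehicle tumours, with 5 to 7 above the floor in each tumour, and their order of tumours differed from that of Npy. Among them Prph, the intermediate filament peripherin, was highest in Vehicle replicate 2, at 334 CPM, whereas Dbh, the enzyme that makes noradrenaline, had at most 1 count in any tumour. Their part in the level of Npy was not tested.

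Tac1 (chromosome 6, 7554879 to 7565834), which encodes substance P and neurokinin A, had 15, 0 and 0 counts with LSN, against 0 and 88 counts with Vehicle. It was detected above the floor only in LSN replicate 1 and Vehicle replicate 2, and the level in Vehicle replicate 2 was at least 30.4-fold higher than the floor in Vehicle replicate 1. Its log2 fold change was -3.13 ± 2.37 (SE; edgeR, unadjusted p = 0.240), and above 0 without Vehicle replicate 2, where the remaining Vehicle tumour is at 0 and the size depends on the prior count.

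Nts (chromosome 10, 102481756 to 102490486), the gene of neurotensin, a peptide of the gut and brain, had 10, 1 and 1 counts with LSN, against 9 and 28 counts with Vehicle. LSN replicate 1 and Vehicle replicate 1 were close, at 0.552 and 0.484 CPM, and LSN replicates 2 and 3 were under the floor. The log2 fold change was -2.19 ± 1.23 (SE; edgeR, unadjusted p = 0.129).

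Grp (chromosome 18, 65872820 to 65886579) was the only member of the 9 with a log2 fold change above 0. It had 179, 46 and 9 counts with LSN, against 22 and 34 counts with Vehicle. LSN replicate 1 was highest and LSN replicate 3 lowest, a 20.7-fold difference of levels within the LSN group, against 1.60-fold between the Vehicle tumours. The log2 fold change was 1.47 ± 1.29 (SE; edgeR, unadjusted p = 0.301), and -0.073 without LSN replicate 1. Per kilobase, Grp reached 9.33 CPM in LSN replicate 1, where Calca was at 153 CPM per kilobase.

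Sst (chromosome 16, 23889573 to 23890958), the gene of somatostatin, which restrains the secretion of many hormones, had 0, 1 and 0 counts with LSN, against 2 and 1 counts with Vehicle. It did not pass the filter, and a difference was not detectable at this depth.

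Of the 9 members tested, 0 passed an adjusted p of 0.05 by edgeR (each had an adjusted p of 0.9996), limma-voom or DESeq2, where the share over all genes was 0.00% by edgeR and limma-voom and 0.539% by DESeq2. None had an unadjusted p under 0.05 by edgeR, against 4.27% of all genes (1.06% higher and 3.21% lower with LSN). None separated the groups, against 18.9% of all genes tested (8.48% higher and 10.4% lower with LSN). The log2 fold change was below 0 for 8 of the 9, against 46.8% of all genes, with a median of -2.03, against 0.03 for all genes. This median was -1.01 with a filter of 1 CPM in 2 samples, -1.11 by limma-voom, -1.06 without LSN replicate 1 and 0.10 without Vehicle replicate 1. Nts and Tac1 did not pass in the settings of -1.01 and -1.06, so those medians are over the other members. With the filter of 1 CPM, the values of those other members were nearly unchanged. Members such as Tac1 and Nts passed the filter through few tumours, so these counts are a description only.

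**Figure D3:**
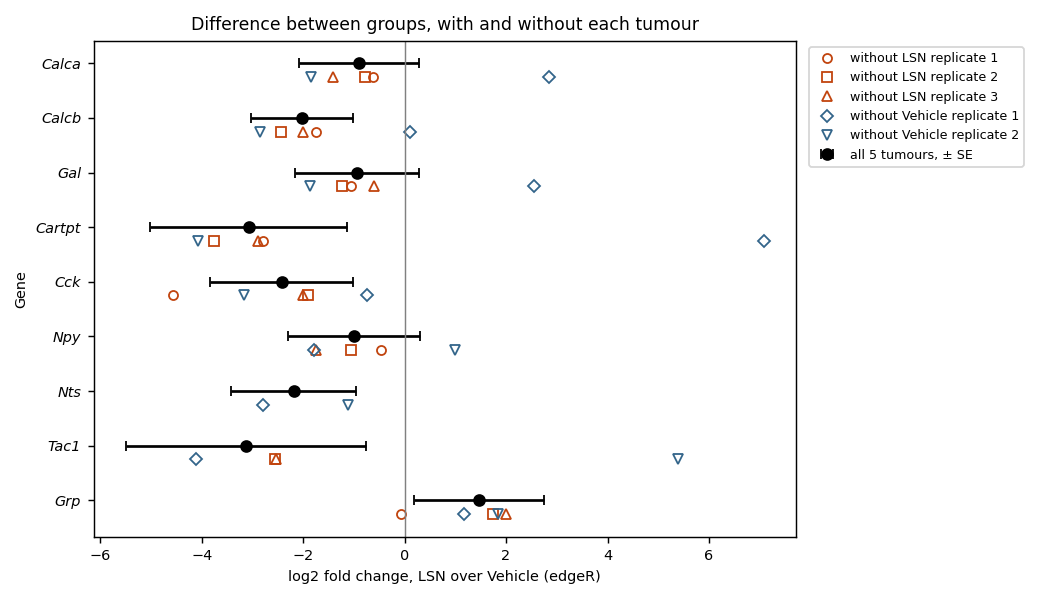
Log2 fold change of LSN over Vehicle by edgeR (x axis) for the 9 genes tested (y axis); filled points with bars are all 5 tumours ± SE, and open symbols leave out 1 tumour each, orange for an LSN and blue for a Vehicle tumour. Leaving out Vehicle replicate 1 puts Calca, Calcb, Gal and Cartpt above 0, and leaving out Vehicle replicate 2 does so for Npy and Tac1; the positions of Cartpt and Tac1 then depend on the prior count, since the remaining Vehicle tumour is at 0.

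The spread between tumours was wide for every one of the 9. Their SDs of log2 CPM over the 5 tumours ran from 1.32 for Calcb to 2.61 for Cartpt, which placed them between the 86.3rd and 98.0th percentile of all genes tested, whose median SD was 0.52. The median SD was 1.75 over the members, 1.59 over the peripheral nerve markers and 1.57 over the normal lung epithelium markers. It was 1.07 over the endothelial and 0.82 over the neuroendocrine markers. A wide spread was thus not confined to the members. No member but Calca had more than 289 counts in any tumour. The highest of the 5 tumours was a Vehicle tumour for 8 of the 9, against 37.5% of all genes tested, and both extremes were Vehicle tumours for 3 (Calca, Gal and Cartpt), against 7.80% of all genes. Vehicle replicate 1 was highest for 5 members and for 16.0% of all genes.

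For each member the 3 genes with the most similar level over the 5 tumours were looked up among 14454 genes with a mean of at least 1 CPM, predicted genes left out, by the root mean square difference of log2 CPM after centring each gene on its mean. These genes were picked for their likeness, so no p is given. Nearest to Calca was Insc (0.15 on the log2 scale), a spindle orientation adaptor on the same chromosome, 107336 bases beyond Calca, at 0.773, 0.857 and 2.06 CPM with LSN and 4.09 and 0.0558 CPM with Vehicle. Next came Fev (0.26), an ETS transcription factor of serotonergic neurons, at 6.02, 5.52 and 14.6 CPM with LSN and 23.0 and 1.12 CPM with Vehicle, and Cyp2e1 (0.36), a cytochrome P450. In Vehicle replicate 2 Insc was under the floor and Cyp2e1 at 0 CPM. Their distances from Calca thus depend on the prior count of 2 in the log2 CPM. Gal was closest to Slc6a2 (0.16), the noradrenaline transporter, at 1.93, 1.82 and 0.847 CPM with LSN and 6.88 and 0.279 CPM with Vehicle. Nearest to Calcb were Wdr95, Tulp2 and Slc6a20a, and to Cartpt Sfrp5, a secreted Wnt antagonist, with Tuba3a and Ly6g6c, the last at 0.94. In Vehicle replicate 2 Cartpt was at 0 CPM, and Tuba3a and Ly6g6c were at or under the floor. Distances from Cartpt thus depend on the prior count as well.

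Grp resembled Klhl13 (0.27), a kelch-like protein, at 754, 177 and 66.0 CPM with LSN and 108 and 136 CPM with Vehicle, followed by the corepressor Tle4 and the phosphodiesterase Pde1b. Tac1 was near Lrrtm3 (0.30), Mnx1 (0.31), a homeobox gene of motor neurons and pancreas, and Nkx2-4 (0.36). In LSN replicates 2 and 3 and Vehicle replicate 1, Tac1 was at 0 and these neighbours were under the floor. Distances from Tac1 thus depend on the prior count of 2 in those tumours. Nts was near Afap1l1, Pcdh15 and Loxl4, and Cck near Acsm1, Ces1f and Fst, the gene of follistatin. The last 2 of these lay at 0.41. Cck, Acsm1 and Ces1f were at or under the floor in LSN replicates 2 and 3, and Nts was under it there. Their distances depend on the prior count as well.

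All 3 genes nearest to Npy encode chains of antibodies made by plasma cells. Jchain (0.22) had 9.39, 80.5 and 95.8 CPM with LSN, against 39.6 and 180 CPM with Vehicle, and Igkc (0.34) and Iglc2 (0.47) followed. The B and plasma cell marker list holds Jchain, which was picked above for its likeness to Npy. The list summed to 15.7, 90.8 and 147 CPM in the LSN tumours and to 58.6 and 248 CPM in the Vehicle tumours. These sums had the same order of tumours as Npy, but Jchain made up most of each, so the order is no separate observation. All 6 markers of the list, Jchain among them, were above the floor in every tumour and none was at 0. Their part in the level of Npy was not tested.

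**Figure D4:**
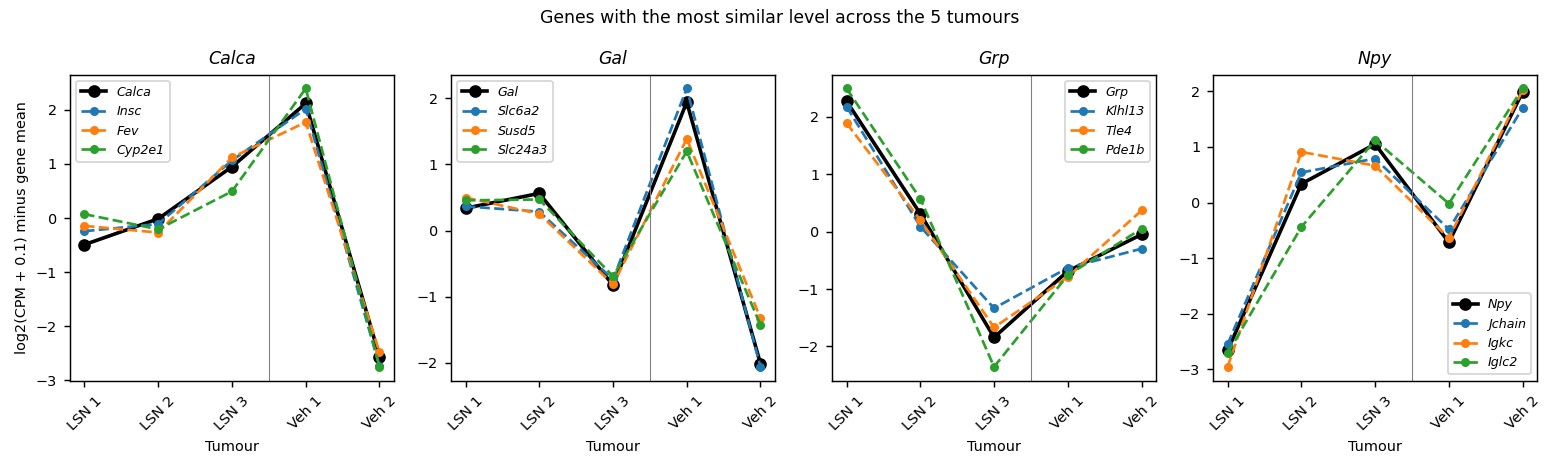
Level of Calca, Gal, Grp and Npy (black) and of the 3 genes with the most similar profile to each (dashed), as log2(CPM + 0.1) minus the gene's mean (y axis), in 3 LSN and 2 Vehicle tumours (x axis); lines only join the points of a gene. Calca and its neighbours are lowest in Vehicle replicate 2, whereas Npy and the antibody genes are highest there.

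Other peptide genes were read from a list of 43, of which 22 were tested and 12 were at or under the floor in every tumour. None was called, none had an unadjusted p under 0.05 by edgeR (4.27% of all genes), and 11 were above and 11 below 0, with a median of -0.03. Several were high in 1 or 2 tumours, as the members were. Pdyn, the prohormone of dynorphin, was at 4.197, 151 and 0 CPM with LSN and at 101 and 13.1 CPM with Vehicle. Iapp, which encodes amylin, a relative of CGRP, was at 1.88, 82.4 and 0.529 CPM with LSN and at 23.3 and 0 CPM with Vehicle. Per kilobase, Pdyn and Iapp reached 52.2 and 84.6 CPM in LSN replicate 2, where Npy, the second member after Calca, was at 5.11 CPM per kilobase. Without Vehicle replicate 1 the median of the list was 0.67, and without Vehicle replicate 2 it was -0.39. Adm, the gene of adrenomedullin, a vasodilator of the same family, was at 0.884, 14.0 and 0.741 CPM with LSN and at 7.31 and 9.32 CPM with Vehicle. Crh, the gene of corticotropin-releasing hormone, chosen after its values were seen, had 324 counts in LSN replicate 1, 6 and 1 in the other LSN tumours, and 9 and 1 in the Vehicle tumours. The smallest p-values of the list belonged to Pmch, the gene of melanin-concentrating hormone (log2 fold change 1.53 ± 0.71 SE; edgeR, unadjusted p = 0.0799), and Npw, the gene of neuropeptide W (-1.61 ± 0.84 SE; edgeR, unadjusted p = 0.109).

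**Figure D5:**
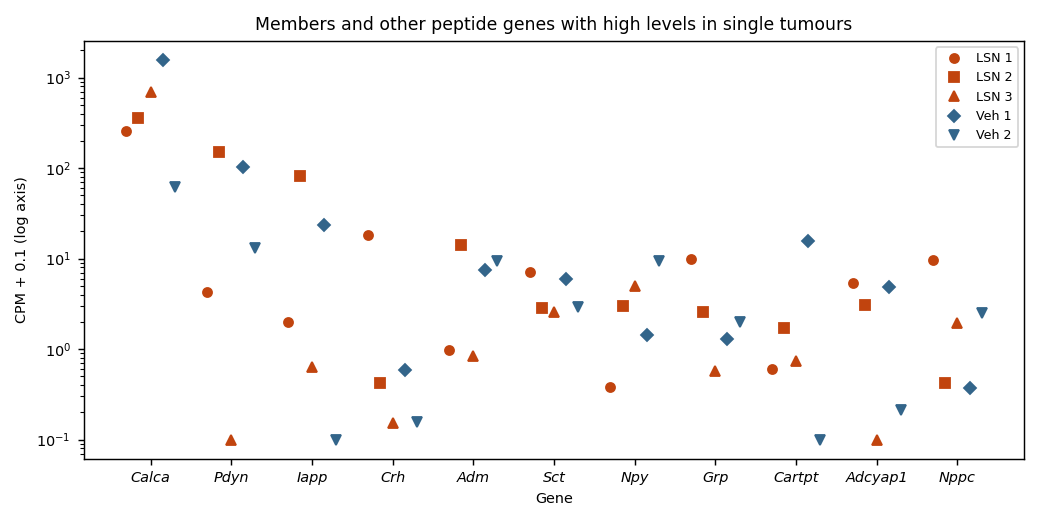
Levels (y axis, CPM + 0.1 on a log axis) of 4 members (Calca, Npy, Grp and Cartpt) and 7 other peptide genes in each tumour; orange symbols are LSN and blue symbols Vehicle tumours. Pdyn and Iapp are highest in LSN replicate 2, at 151 and 82.4 CPM, and Crh in LSN replicate 1, at 17.9 CPM.

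Receptors of the member peptides were tested for 20 of 28 genes. By edgeR 0 were called, 4 had an unadjusted p under 0.05, all lower with LSN (3.21% of all genes in that direction), and 5 were below both Vehicle tumours in every LSN tumour (10.4% of all genes), with a list median of -0.57, which became 0.16 without Vehicle replicate 1. The 4 were the CGRP receptor Calcrl, its accessory protein Ramp1, the cholecystokinin receptor Cckar and the substance P receptor Tacr1, and the fifth gene below both Vehicle tumours was Nmbr, the neuromedin B receptor. Calcrl, Ramp1 and Nmbr were named after their values were seen. Calcrl was at 23.2, 12.9 and 10.6 CPM with LSN and at 36.0 and 32.1 CPM with Vehicle, and Ramp1 at 3.70, 1.39 and 4.98 CPM with LSN and at 10.6 and 11.5 CPM with Vehicle. Cckar was at 3.42, 0.804 and 1.16 CPM with LSN and at 12.4 and 10.2 CPM with Vehicle (log2 fold change -2.65 ± 0.77 SE; edgeR, adjusted p = 0.9996; DESeq2, adjusted p = 0.0744). Tacr1 was at 2.37, 0.482 and 0.265 CPM with LSN and at 10.6 and 6.81 CPM with Vehicle. Endothelial markers and normal lung epithelium markers were lower with LSN as well, for 7 of 8 and 10 of 10 genes with medians of -1.66 and -2.09, and their part in the receptor levels was not tested.

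The receptors with the highest mean CPM overlapped between the groups. Sort1, the sorting receptor sortilin that binds neurotensin, was at 213, 429 and 278 CPM with LSN and at 228 and 198 CPM with Vehicle. Npy1r, a receptor of neuropeptide Y, was at 23.1, 100 and 91.7 CPM with LSN and at 87.0 and 4.02 CPM with Vehicle. Npy1r was lowest in the tumour where Npy was highest, and second lowest in LSN replicate 1, where Npy was lowest. Sstr2, the somatostatin receptor used for imaging neuroendocrine tumours, was at 121, 43.8 and 32.8 CPM with LSN and at 35.1 and 72.1 CPM with Vehicle, although Sst itself was at or under the floor. Grpr, the receptor of gastrin-releasing peptide, had 19 counts in LSN replicate 1, the tumour with most Grp, 0 and 0 in the other LSN tumours, and 0 and 1 in the Vehicle tumours. Grpr was named after its values were seen.

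Genes that process and store prohormones were all 20 tested, with 0 called, a median of 0.13 (0.79 without Vehicle replicate 1), and 14 above and 6 below 0. Pcsk1, a prohormone convertase, was at 600, 3027 and 528 CPM with LSN and at 977 and 345 CPM with Vehicle. Chga, the granin that fills dense core vesicles, was at 1241, 1360 and 492 CPM with LSN and at 1475 and 172 CPM with Vehicle, highest and lowest in the same tumours as Calca. Chgb, another granin, was at 758, 575 and 246 CPM with LSN and at 534.2 and 156 CPM with Vehicle. Cpd, a carboxypeptidase that trims basic residues, was the 1 gene of the list at an unadjusted p under 0.05, at 258, 320 and 260 CPM with LSN and at 166 and 162 CPM with Vehicle (log2 fold change 0.77 ± 0.21 SE; edgeR, adjusted p = 0.9996). Pcsk5, a further convertase, was at 11.8, 2.30 and 5.66 CPM with LSN and at 13.4 and 25.7 CPM with Vehicle.

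Peptidases that break peptides down were tested for all 11 genes, with 0 called by edgeR and a median of 0.11 (-0.34 without LSN replicate 2). Mme, the gene of neprilysin, which degrades substance P and bombesin-like peptides, had 61, 33 and 58 counts with LSN, against 280 and 576 counts with Vehicle. Each LSN tumour was below both Vehicle tumours, and the log2 fold change was -3.11 ± 0.56 (SE; edgeR, adjusted p = 0.9996), which DESeq2 called (adjusted p = 0.000297). The normal lung markers given above were lower in the same 3 tumours, and their part was not tested. Dpp4, which cleaves neuropeptide Y, was at 5.03, 1.61 and 5.29 CPM with LSN and at 8.50 and 18.1 CPM with Vehicle. Ece1, Ide and Prep, with the highest mean CPM of the list, overlapped between groups, with log2 fold changes of 0.58, 0.11 and 0.16.

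Among 14 transcription factors of neuroendocrine cells and peptide genes, 13 were tested and 0 called by edgeR, with a median of -0.08. At an unadjusted p under 0.05 were 3, Neurod1, Yap1 and Pax6, all lower with LSN (3.21% of all genes in that direction). Insm1, a zinc finger factor of endocrine cells, was at 589, 822 and 445 CPM with LSN and at 507 and 535 CPM with Vehicle. Nkx2-1, a lung lineage factor, was at 243, 109 and 515 CPM with LSN and at 266 and 479 CPM with Vehicle. Neurod1 had 14, 8 and 0 counts with LSN, against 693 and 199 counts with Vehicle (DESeq2, adjusted p = 0.000652). Calca was at 698 CPM in LSN replicate 3, and a link between Neurod1 and Calca was not tested. Yap1, a coactivator of non-neuroendocrine cells, was at 10.1, 9.81 and 9.21 CPM with LSN and at 16.9 and 30.5 CPM with Vehicle.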

How the data were processed

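RNA-seq was made from 5 tumours. Per the labels' protocols, libraries did not keep the strand, and the authors mapped paired reads to mm10 with STAR and used DESeq2 for differential expression. The authors deposited raw counts per gene, whole numbers without normalization, and a length for each gene as another value. The sources used here name no STAR version, counting program or annotation. Without strand, reads of overlapping antisense genes cannot be told apart.

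Groups follow the treatment label. LSN was compared with Vehicle over all 5 tumours by edgeR 4.0.16 in R 4.3.3 (robust quasi-likelihood F test, TMM, filterByExpr at 10 counts per sample and 15 in total), adjusted by Benjamini-Hochberg over 17906 genes with 3 residual degrees of freedom. The SE is the log2 fold change divided by the root of F. Log2 CPM used a prior count of 2. An exact permutation test of 3 against 2 tumours cannot go below 0.1. Alternatives were DESeq2 1.42.0, limma-voom (limma 3.58.1), RLE or total-count scaling, other filters, a prior count of 0.5, a fit without the robust option, and leaving out each tumour. The fitting script was tested on simulated data.

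All 10 members were named, and from each list the 3 genes with the highest mean CPM and the 2 with the smallest p, others being said to be chosen after their values were seen. Some genes that fall under this rule or the marker lists are not reported here. The members and lists were chosen with earlier results of these data known. Counting floors cover counting error only.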

Additional observations from a re-analysis of the deposited data

How the results depend on the processing

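No paired analysis was made because no label pairs tumours across the groups. Each sample has its own tumour number, and that of Vehicle replicate 2 is far from the others. No label says what these numbers stand for. In 0 of 13 alternatives was a member called. DESeq2 called 100 genes where edgeR called 0, and limma-voom, the other scalings, filters and fits and all 5 omissions of a tumour also called 0. Of 111 log2 fold changes of members under alternatives, 101 kept their sign and 10 changed it, and none was called (smallest adjusted p = 0.668, for Cck). All 10 changes came by limma-voom or with a tumour left out. The other alternatives shifted the values little, so the 101 say little about how stable a sign is. By limma-voom, Calca (0.36), Gal (0.14) and Cartpt (0.29) changed sign. Over omissions of a tumour, values ran from -1.84 to 2.85 for Calca, -2.85 to 0.10 for Calcb, -1.87 to 2.55 for Gal, -4.08 to 7.08 for Cartpt, -1.80 to 0.98 for Npy, -4.12 to 5.39 for Tac1 and -0.073 to 2.004 for Grp, the lowest without LSN replicate 1. The highest values of Cartpt and Tac1 are no estimates of size, since the 1 Vehicle tumour left is at 0 and the prior count sets them. The median of the members was -1.11 by limma-voom and -1.01 with a filter of 1 CPM in 2 samples, and ran from -1.88 to 0.10 over omissions of a tumour. No member separated the groups with all tumours, and between 0 and 6 did when a tumour was left out: 6 without Vehicle replicate 1 (51% of all genes), 5 without Vehicle replicate 2 (42.4%), 2 when LSN replicate 1 was dropped (36.2%) and 1 when LSN replicate 3 was dropped (30.4%). With 1 Vehicle tumour left, that tumour is assumed to vary like the LSN tumours. Nts and Tac1 did not pass the filter under some settings and have fewer values, and the medians of those settings leave them out. The counts of members that separated the groups still include them, whereas each percentage is over genes that passed in that setting. Nts is 1 of the 2 without LSN replicate 1, where it did not pass. Depth limits every member but Calca, since most counts were under 100.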

Other observations

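LSN replicate 1, the tumour with the highest Grp, also had the highest level of several other genes of neurons and endocrine cells, all chosen after their values were seen. Th, which encodes tyrosine hydroxylase of catecholamine synthesis, was at 205, 0.214 and 39.7 CPM in LSN replicates 1, 2 and 3 and at 22.1 and 9.60 CPM in Vehicle replicates 1 and 2. Avil, the gene of advillin, an actin-binding protein of sensory neurons, was at 55.5, 6.16 and 1.16 CPM with LSN and at 13.1 and 3.29 CPM with Vehicle. Isl1, a homeobox gene of neurons and endocrine cells, had 114, 0 and 2 counts with LSN, against 23 and 7 counts with Vehicle. Nppc, the gene of C-type natriuretic peptide, had 174, 6 and 35 counts with LSN, against 5 and 43 counts with Vehicle. Sstr4, a somatostatin receptor, had 149, 0 and 5 counts with LSN, against 1 and 16 counts with Vehicle. These values come from 1 tumour and carry no test of the treatment.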
